A study of Mus musculus with 10 samples.

Results

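The genes described here are those of enterochromaffin cells, the serotonin-making endocrine cells of the gut, together with genes of monoamine synthesis. Members were the rows of the deposited gene table whose symbol was Tph1, Ddc, Th, Slc18a1, Tac1, Chga, Chgb or Lmx1a, and all 8 of 8 were found among 20579 genes. RNA had been sequenced from cells sorted for green fluorescent protein driven by the Hopx promoter, taken from mechanically dissociated intestinal crypts of mouse embryos (E18.5) of a C57BL6/J / 129S4 strain. Of 10 libraries, 5 came from p57KO embryos, which lack the cyclin-dependent kinase inhibitor p57Kip2 encoded by Cdkn1c, and 5 from p57WT embryos. The reporter was shared by both genotypes. The labels also carry a number, which no source used here explains. Number 607 covered p57KO 1, p57KO 2 and p57WT 1, number 608 covered p57KO 3 to 5, and number 740 covered p57WT 2 to 5, so that number and genotype can be told apart only within 607.

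Enterochromaffin cells make serotonin from tryptophan. Tph1, the tryptophan hydroxylase of peripheral tissues, carries out the rate-limiting step, and Ddc, the aromatic amino acid decarboxylase, completes the synthesis. Slc18a1, the vesicular monoamine transporter VMAT1, loads the amine into granules whose matrix is built by the granins Chga and Chgb. Many of these cells also make Tac1, the precursor of the peptide substance P, and Lmx1a is a LIM-homeodomain transcription factor of this lineage. Th, tyrosine hydroxylase, starts catecholamine synthesis and shares the decarboxylase and the cofactor tetrahydrobiopterin with the serotonin pathway.

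Total counts ranged from 8037887 to 26809231 per library, and a floor of 3 counts corresponded to 0.105 to 0.392 CPM, a gene's count relative to the library's total after TMM scaling between libraries. Cdkn1c averaged 0.840 ± 0.764 CPM in p57KO cells and 230 ± 129 CPM in p57WT (SD, n = 5 each). Hopx averaged 151 ± 30.6 CPM in p57KO cells and 71.3 ± 6.73 CPM in p57WT. The libraries were labelled as intestinal stem cells but held much smooth muscle RNA: 9 smooth muscle genes summed to between 4719 and 32070 CPM in p57KO cells and between 48460 and 97270 CPM in p57WT. The summed level of 15 general epithelial genes was 8932 to 17300 CPM in p57KO cells and 3061 to 7432 CPM in p57WT. Counts on 3 ribosomal RNA repeat features took 9.47% of p57KO 5, 14.9% to 17% of p57WT 1, 3, 4 and 5, and under 0.5% of the other libraries. These library features moved with genotype. Their part in the results below was tested only through the alternative scalings and, for the ribosomal RNA share, a fit with a term for it. All 8 genes below still passed with that term. However, the ribosomal RNA class and genotype can be told apart only through p57KO 5 and p57WT 2. In bulk RNA more cells of a type and more RNA per cell cannot be told apart.

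All 8 genes were higher in p57KO, and for each of them every p57KO library exceeded every p57WT library. By edgeR's quasi-likelihood test all 8 passed at an adjusted p below 0.05 as higher, where 19.3% of the 16710 genes tested passed as higher and 36.5% in either direction, and 11.5% of all genes tested had p57KO libraries wholly above p57WT libraries. Their median log2 fold change, p57KO over p57WT, was 3.19, against 0.08 over all genes tested. The values lay between 3.10 and 3.31 for 6 of the 8, with Ddc below at 1.65 and Th above at 4.42. All 8 members passed the filter on low counts, Th through its p57KO level alone, so its place in the count carries no weight. All 8 also passed in edgeR when p57KO 1 and p57KO 2, the p57KO libraries of 607, were left out together. The plot of CPM by library shows each member.

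**Figure D1:**
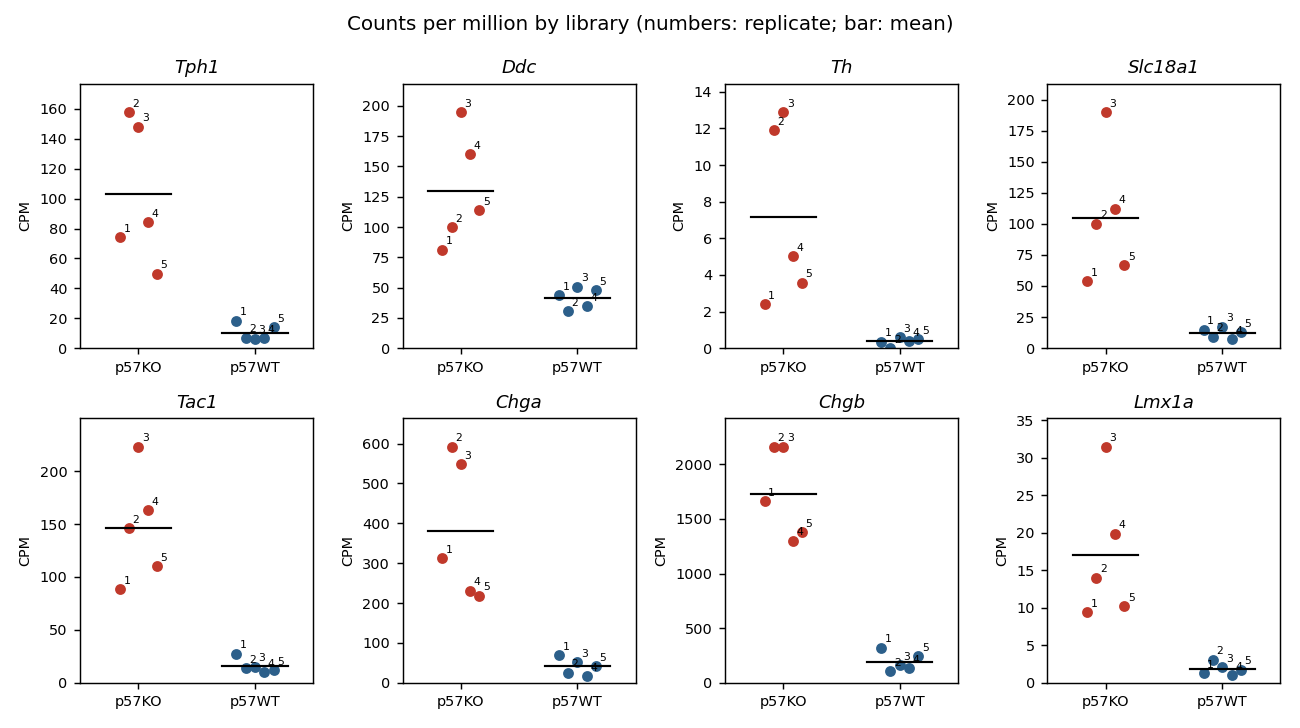
CPM (y axis, linear from 0) of the 8 genes in each library, p57KO on the left and p57WT on the right of each panel; numbers are replicates and the bar is the mean of 5 libraries. All p57KO points lie above all p57WT points in every panel, and p57KO 3 or p57KO 2 is the highest library.

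Tph1 (ENSMUSG00000040046, chromosome 7, 46644641 to 46672537, minus strand, GRCm38) was at 74.1, 158, 148, 84.1 and 49.8 CPM in p57KO libraries 1 to 5, against 18.2, 6.84, 6.29, 6.67 and 14.1 CPM in p57WT libraries 1 to 5. The lowest p57KO library thus held more than the highest p57WT library. The log2 fold change came to 3.31 (95% limits 2.40 to 4.21, SE 0.42, adjusted p = 0.00031 by edgeR), and it stayed between 3.12 and 3.61 when each library was left out in turn. Tph1 varied within p57KO by 3.18-fold between the lowest and highest library, p57KO 5 and p57KO 2.

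Ddc (ENSMUSG00000020182, chromosome 11, 11814101 to 11898144, minus strand), which absorptive enterocytes also express, was the most abundant of the 3 synthesis enzymes in both genotypes per kilobase of exon. Levels were 81.2, 100, 195, 160 and 114 CPM in p57KO libraries 1 to 5 and 43.7, 30.4, 50.7, 34.5 and 48.0 CPM in p57WT libraries 1 to 5. The groups did not overlap, but the gap between p57KO 1 and p57WT 3 was narrower than for Tph1. Its log2 fold change came to 1.65 (95% limits 1.06 to 2.24, SE 0.27, adjusted p = 0.00104 by edgeR). Beside it, 12 enterocyte genes summed to between 3177 and 8970 CPM in p57KO cells and between 419 and 1407 CPM in p57WT. Of the 12, 10 passed as higher, where 19.3% of all genes tested did so. The part of enterocyte RNA in the Ddc value was not tested.

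The ratio of Ddc to Tph1 was lower in every p57KO library than in every p57WT library. Per kilobase, Ddc stood at 1.52, 0.877, 1.82, 2.64 and 3.16 times Tph1 in p57KO libraries 1 to 5, and at 3.32, 6.14, 11.1, 7.16 and 4.71 times Tph1 in p57WT 1 to 5. This ratio is taken within a library and so does not depend on scaling between libraries. The groups did not overlap, although p57KO 5 and p57WT 1 lay close together, and no test was made because the pair was chosen after its values were seen.

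Th (ENSMUSG00000000214, chromosome 7, 142892752 to 142931128, minus strand) was the least abundant member and was near the detection floor in p57WT. It had 28, 280, 367, 131 and 41 counts in p57KO libraries 1 to 5, against 3, 0, 5, 3 and 4 counts in p57WT 1 to 5. In CPM this was 2.41, 11.9, 12.9, 5.02 and 3.57 in p57KO and 0.341, 0, 0.605, 0.392 and 0.474 in p57WT. The libraries p57KO 2, p57KO 3 and p57KO 4 held most of the reads, and these 3 were also the deepest p57KO libraries at 25043153 to 26809231 total counts, while p57WT 2 had none among 25527896, where 3 counts would be 0.119 CPM. Pooled over libraries, 847 counts in p57KO against 15 in p57WT gave a ratio of 32.6 after scaling, with an exact 95% Poisson interval of 19.6 to 58.4 that covers counting error only. The fitted log2 fold change came to 4.42 (95% limits 2.71 to 6.14, SE 0.80, adjusted p = 0.00153 by edgeR). Th lies 527 kb from Cdkn1c on the same chromosome.

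Other catecholamine genes were measured less fully. Dbh, Pnmt and Slc6a2, which encode the noradrenaline and adrenaline enzymes and the noradrenaline transporter, were not in the table and were not analysed here. Slc6a3, the dopamine transporter gene, did not pass the filter on low counts and lay between 0.086 and 2.80 CPM in p57KO cells and between 0.0395 and 1.05 CPM in p57WT.

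Genes for tetrahydrobiopterin, the cofactor of both hydroxylases, were mostly higher in p57KO, with a median log2 fold change of 1.26. Of 6 genes, 5 passed as higher and 0 as lower, where 19.3% and 17.2% of all genes tested did so. Scaled to endocrine markers, where the median over all genes was -2.77, they ran from -0.19 for Gchfr to -2.56 for Spr. Without p57WT 2 they ran from 0.55 for Gchfr to -1.73 for Spr. Gch1, which encodes the first enzyme of its synthesis, was at 76.5, 185, 108, 88.4 and 65.4 CPM in p57KO libraries 1 to 5 and at 38.6, 19.9, 22.1, 16.5 and 18.4 CPM in p57WT 1 to 5. Every p57KO library was above every p57WT library, and the log2 fold change came to 2.18 (SE 0.33, adjusted p = 0.000699 by edgeR). Gchfr, the feedback regulator of that enzyme, rose by 2.62 (SE 0.42, adjusted p = 0.000875 by edgeR). The next synthesis gene, Pts, rose by 1.37 (adjusted p = 0.00595 by edgeR) but missed the threshold with the ribosomal RNA term (1.03, adjusted p = 0.0798 by edgeR), and the recycling genes Pcbd1 and Qdpr rose by 1.16 and 1.09 (adjusted p = 0.00191 and 0.00601 by edgeR). Spr, the last synthesis enzyme, was at 65.8 ± 5.46 CPM in p57KO cells and 51.1 ± 6.49 CPM in p57WT cells (log2 fold change 0.36, 95% limits -0.03 to 0.76, adjusted p = 0.132 by edgeR). Within 607 none of the 5 passed, at 0.13 for Qdpr to 1.89 for Pts (adjusted p from 0.0687 to 0.867 by edgeR). Scaled to epithelial markers, Gch1 and Gchfr still passed at 0.98 and 1.45 (adjusted p = 0.0152 and 0.0131 by edgeR), while Pts was at 0.08 and Qdpr and Pcbd1 turned to -0.03 each, none of them passing, and Spr passed as lower at -0.90 (adjusted p = 0.0175 by edgeR), as 9693 of 16710 genes did.

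For storage, Slc18a1 (ENSMUSG00000036330, chromosome 8, 69037711 to 69089235, minus strand) was at 53.7, 100, 190, 112 and 66.9 CPM in p57KO libraries 1 to 5, against 14.9, 9.05, 17.1, 7.20 and 12.8 CPM in p57WT libraries 1 to 5. The p57KO libraries were all higher, with p57KO 3 the highest, and the log2 fold change came to 3.10 (95% limits 2.29 to 3.91, SE 0.37, adjusted p = 0.00026 by edgeR). Its relative Slc18a2, the transporter VMAT2 of neurons, platelets, mast cells and other amine-storing cells, did not pass. Slc18a2 averaged 8.44 ± 3.44 CPM in p57KO cells and 10.95 ± 3.20 CPM in p57WT cells (log2 fold change -0.37, 95% limits -1.11 to 0.38, adjusted p = 0.418 by edgeR), and it passed as lower, at -1.57, when libraries were scaled to epithelial markers (adjusted p = 0.00666 by edgeR), as did 9693 of 16710 genes on that scale. Per kilobase, Slc18a1 was 7.55, 19.9, 13.5, 10.7 and 9.53 times Slc18a2 in p57KO libraries 1 to 5, whereas the transporters were near parity in p57WT 1 to 5, at 1.06, 1.23, 1.19, 0.872 and 1.02. This ratio does not depend on scaling between libraries, but its level depends on the gene lengths used. The exon unions were 5.401 kb for Slc18a1 and 5.225 kb for Slc18a2, and the longest transcripts 3.115 and 4.393 kb. With the longest transcripts the ratio would be higher in every library, p57WT included. The pair was chosen after its values were seen, so no test was made.

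**Figure D2:**
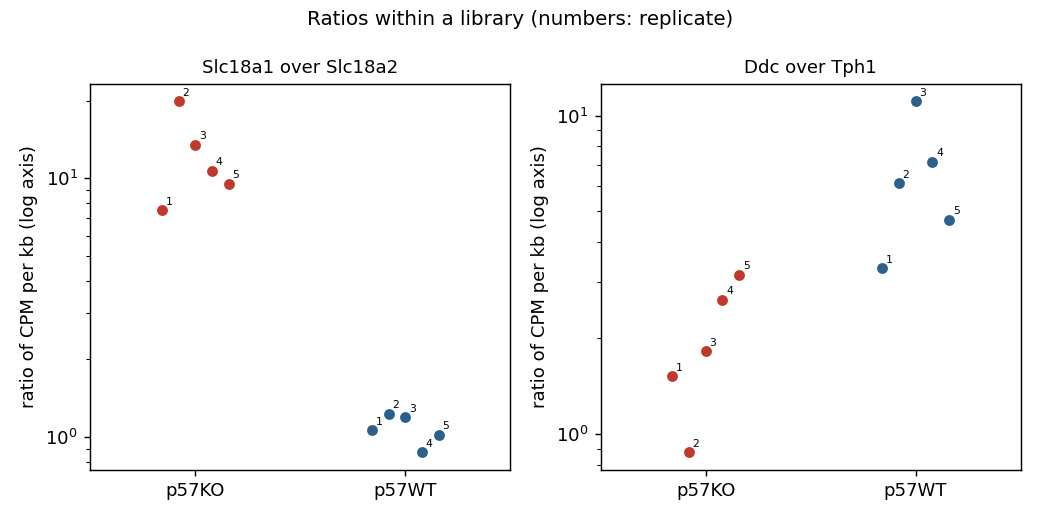
Ratio of CPM per kilobase of exon within each library (log axis), p57KO left and p57WT right, for Slc18a1 over Slc18a2 and for Ddc over Tph1; numbers are replicates. The transporter ratio is 7.55 to 19.9 in p57KO and 0.872 to 1.23 in p57WT, and the enzyme ratio is 0.877 to 3.16 in p57KO and 3.32 to 11.1 in p57WT.

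Of 5 measured genes for serotonin handling outside the members, 2 passed as higher and 0 as lower (median 0.19). Over all genes tested, 19.3% passed as higher and 17.2% as lower. Slc6a4, the serotonin reuptake transporter, averaged 50.7 ± 8.71 CPM in p57KO cells and 18.6 ± 6.56 CPM in p57WT cells (log2 fold change 1.45, SE 0.28, adjusted p = 0.00222 by edgeR), with no overlap between libraries, but missed the threshold within 607 at 0.93 (adjusted p = 0.346 by edgeR). Maob, a monoamine oxidase gene, was at 47.9, 99.1, 482, 410 and 183 CPM in p57KO libraries 1 to 5 and at 54.3, 84.6, 61.2, 53.1 and 37.3 CPM in p57WT libraries 1 to 5. The p57KO libraries of 607 lay within or near the p57WT range, and those of 608 lay above it. Its log2 fold change came to 2.07 (adjusted p = 0.009 by edgeR), 2.70 without p57KO 1 and p57KO 2, and 0.44 within 607, where it missed the threshold (adjusted p = 0.725 by edgeR). The Maob call was also lost with the ribosomal RNA term (adjusted p = 0.0764 by edgeR). Maoa, the oxidase with serotonin as a preferred substrate, missed the threshold (0.19, 95% limits -0.72 to 1.10, adjusted p = 0.751 by edgeR), and its sign turned in limma voom and without p57KO 3 or p57KO 4. Scaled to epithelial markers, neither Slc6a4 (0.32, adjusted p = 0.404 by edgeR) nor Maob (0.93, adjusted p = 0.153 by edgeR) passed, and scaled to endocrine markers they lay at -1.33 and -1.13, or without p57WT 2 at -0.87 and -0.04.

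Among histamine genes, Hdc, the histidine decarboxylase, was concentrated in the libraries p57KO 1 and p57KO 2, at 5.85 and 25.6 CPM against at most 1.26 CPM in p57KO 3 to 5 and at most 2.06 CPM in p57WT. Its log2 fold change of 3.28 (adjusted p = 0.0286 by edgeR) was 1.57 without p57KO 2 and 0.57 without p57KO 1 and p57KO 2, and passed in neither case (adjusted p = 0.165 and 0.578 by edgeR). The call was also lost without any 1 of p57WT 1, 2, 4 or 5 (adjusted p from 0.0593 to 0.0663 by edgeR). Hnmt, a histamine methyltransferase, was lower at 2.74 ± 0.942 CPM in p57KO cells and 14.2 ± 3.91 CPM in p57WT cells (log2 fold change -2.37, adjusted p = 0.000518 by edgeR). Aoc1, the gut diamine oxidase, was higher at 121 ± 47.0 CPM in p57KO cells and 31.0 ± 9.72 CPM in p57WT (1.96, adjusted p = 0.00106 by edgeR). Within 607 neither passed, at -2.08 for Hnmt and 1.06 for Aoc1 (adjusted p = 0.0554 and 0.27 by edgeR), and Aoc1 missed the threshold on the epithelial scale at 0.85 (adjusted p = 0.0575 by edgeR) and lay at -0.97 on the endocrine scale, or -0.35 without p57WT 2.

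Tac1 (ENSMUSG00000061762, chromosome 6, 7554879 to 7565834, plus strand) was at 88.3, 146, 223, 163 and 110 CPM in p57KO libraries 1 to 5 and at 27.7, 14.0, 15.1, 10.2 and 12.1 CPM in p57WT libraries 1 to 5. The p57KO libraries were all higher, and among p57WT libraries p57WT 1 stood above the other 4. The log2 fold change came to 3.21 (95% limits 2.47 to 3.94, SE 0.34, adjusted p = 0.000178 by edgeR). Of its receptors, Tacr1, the substance P receptor, was lower at 9.75 ± 6.18 CPM in p57KO cells and 28.8 ± 15.8 CPM in p57WT (-1.56, adjusted p = 0.0167 by edgeR), and missed the threshold without p57WT 2 (-1.15, adjusted p = 0.051 by edgeR), without p57KO 1 and p57KO 2 (-1.04, adjusted p = 0.0532 by edgeR) and within 607 (-2.21, adjusted p = 0.0643 by edgeR). Tacr2 was at -1.57 and missed the threshold (adjusted p = 0.11 by edgeR), but passed within 607 at -4.47 (adjusted p = 0.00947 by edgeR) and in limma voom at -2.24 (adjusted p = 0.0444). Smooth muscle, which expresses tachykinin receptors, moved the same way in its 9 marker genes. All 9 of 9 passed as lower, where 17.2% of all genes tested did so. The part of smooth muscle in the receptor values was not tested. Of 14 serotonin receptor genes, 4 were in the table and 2 were tested. Htr2b was at -1.75 (adjusted p = 0.0429 by edgeR), a call lost when any 1 library other than p57KO 1 or p57WT 4 was left out, and Htr4 was at -0.90 and missed the threshold (adjusted p = 0.38 by edgeR).

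The granin genes were the most abundant members. Chgb (ENSMUSG00000027350, chromosome 2, 132781278 to 132795079, plus strand) was at 1660, 2160, 2160, 1300 and 1380 CPM in p57KO libraries 1 to 5 and at 323, 106, 163, 134 and 244 CPM in p57WT 1 to 5. No p57KO library overlapped the p57WT range, and p57KO 2 and p57KO 3 were the highest for both granins. Among p57KO libraries Chgb varied least of all members, by 1.66-fold, and its log2 fold change came to 3.16 (95% limits 2.38 to 3.94, SE 0.36, adjusted p = 0.000213 by edgeR). Chga (ENSMUSG00000021194, chromosome 12, 102554969 to 102565028, plus strand) was at 312, 592, 548, 231 and 218 CPM in p57KO libraries 1 to 5 and at 69.0, 25.6, 52.3, 17.1 and 41.3 CPM in p57WT 1 to 5. Its log2 fold change came to 3.21 (95% limits 2.28 to 4.15, SE 0.43, adjusted p = 0.000389 by edgeR). Chgb stood at 3.67 to 6.39 times Chga per kilobase in p57KO and at 3.14 to 7.89 times in p57WT, so the ranges of this ratio overlapped.

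Promoters of the members were read from RefSeq (GRCm38.p6), 250 bases before to 50 after each start, for 7 of the 8 genes in 9 windows, with no entry used for Slc18a1. TGACGT, the core of the cyclic AMP response element, or its reverse complement ACGTCA, was found for 3 members, Chgb, Th and Chga, and in 7.51% of all 32851 windows of the same length. The first matching base was at position -72 in Chgb, -45 in Th and -44 in Chga, counted from the RefSeq start. In Chgb and Th the match was found on both strands as overlapping letters. The windows of the 3 members that share the letters are shown 5′ to 3′ on the gene's strand, with the matching bases in capitals:
Chgb, chr2:132781392-132781691, plus strand: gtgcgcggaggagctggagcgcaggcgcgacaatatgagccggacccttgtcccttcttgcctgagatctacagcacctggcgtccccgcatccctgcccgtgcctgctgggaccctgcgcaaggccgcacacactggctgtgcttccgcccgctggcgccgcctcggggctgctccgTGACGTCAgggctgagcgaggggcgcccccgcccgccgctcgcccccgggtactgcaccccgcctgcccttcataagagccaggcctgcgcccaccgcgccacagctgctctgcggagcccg
Th, chr7:142899946-142900245, minus strand: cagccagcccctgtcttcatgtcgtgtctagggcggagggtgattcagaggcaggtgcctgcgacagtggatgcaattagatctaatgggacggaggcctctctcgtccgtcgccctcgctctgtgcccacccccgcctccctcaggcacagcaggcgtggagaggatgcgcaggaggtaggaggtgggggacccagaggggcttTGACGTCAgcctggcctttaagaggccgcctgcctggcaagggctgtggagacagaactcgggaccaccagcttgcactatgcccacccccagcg
Chga, chr12:102554691-102554990, plus strand: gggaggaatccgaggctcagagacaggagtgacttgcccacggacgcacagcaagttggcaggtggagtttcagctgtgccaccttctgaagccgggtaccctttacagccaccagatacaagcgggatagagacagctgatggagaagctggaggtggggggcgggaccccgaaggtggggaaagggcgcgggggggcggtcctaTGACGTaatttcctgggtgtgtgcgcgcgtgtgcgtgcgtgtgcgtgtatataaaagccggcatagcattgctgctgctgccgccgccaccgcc
The remaining motifs searched, on both strands, were CAGATG, found for Tac1 (17.2% of all windows), TAATTA, found for Tac1 and Tph1 (5.29%), and TATAAA, found for Ddc and Chga (13.6%). A match describes the letters and does not show a bound site.

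Lmx1a (ENSMUSG00000026686, chromosome 1, 167689237 to 167848741, plus strand) was at 9.46, 14.0, 31.5, 19.9 and 10.2 CPM in p57KO libraries 1 to 5, against 1.25, 3.08, 2.06, 1.05 and 1.78 CPM in p57WT libraries 1 to 5. The libraries did not overlap, and p57KO 3 was the highest. The log2 fold change came to 3.17 (95% limits 2.22 to 4.13, SE 0.44, adjusted p = 0.000455 by edgeR). In p57WT its highest library was p57WT 2, which held the lowest Chgb level, so the members did not share 1 order of p57WT libraries.

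Per kilobase of exon, mean levels in p57KO ran from Chgb (633 ± 150) through Chga (138 ± 64.5), Tac1 (43.0 ± 15.3), Ddc (29.1 ± 10.4), Slc18a1 (19.3 ± 9.85), Tph1 (16.7 ± 7.73) and Lmx1a (5.01 ± 2.68) to Th (3.02 ± 2.06 CPM per kb, SD, n = 5). In that order Tac1 and Ddc, Ddc and Slc18a1, Slc18a1 and Tph1, and Lmx1a and Th lay within 1 SD of their neighbour. The order in p57WT was Chgb (70.9 ± 32.4), Chga (14.9 ± 7.52), Ddc (9.29 ± 1.96), Tac1 (4.65 ± 2.02), Slc18a1 (2.26 ± 0.754), Tph1 (1.69 ± 0.881), Lmx1a (0.543 ± 0.236) and Th (0.153 ± 0.0955 CPM per kb, SD, n = 5). Tac1 and Ddc thus changed places. Within a library Tac1 was 1.28 to 1.91 times Ddc per kilobase in p57KO and 0.331 to 0.831 times in p57WT. With the longest transcript in place of the exon union the order in each genotype was the same.

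Other genes tied to enterochromaffin cells also differed. Of 8 such genes, 6 passed as higher and 1 as lower (median 2.88), where 19.3% and 17.2% of all genes tested did so. Scaled to endocrine markers, Fev and Pcsk1n, a granin-like propeptide gene, were among those below 0, at -1.07 and -0.44, or without p57WT 2 at -1.03 and -0.22. Trpa1, an irritant-sensing channel, averaged 12.3 ± 6.39 CPM in p57KO cells and 0.800 ± 0.839 CPM in p57WT (3.92, SE 0.70, adjusted p = 0.00146 by edgeR), and was at 4.63 without p57WT 1. Ucn3, a urocortin peptide gene, averaged 12.99 ± 6.54 CPM in p57KO cells and 0.615 ± 0.950 CPM in p57WT (4.39, SE 0.85, adjusted p = 0.00222 by edgeR), and was at 5.73 without p57WT 1. Trpa1 and Ucn3 were at 0 to 2.16 and 0 to 2.28 CPM in p57WT and passed the filter on low counts through p57KO alone. Their calls thus carry no weight in the count of 6. Scg2, the secretogranin II gene, was the largest change in the list at 5.14 (SE 0.61, adjusted p = 0.00025 by edgeR). The lectin gene Reg4, which goblet cells also express, was at 2760, 1620, 677, 659 and 322 CPM in p57KO libraries 1 to 5, and at 147, 42.2, 88.0, 40.3 and 109 CPM in p57WT 1 to 5 (3.83, adjusted p = 0.000828 by edgeR), and came to 2.76 without p57KO 1 and p57KO 2. Within 607, Trpa1 (1.93), Ucn3 (1.77), Scg2 (4.63), Fev (0.85) and Pcsk1n (2.79) missed the threshold, and Reg4 was at 3.90. Scaled to epithelial markers, neither Fev (0.06) nor Pcsk1n (0.55) passed (adjusted p = 0.922 and 0.398 by edgeR).

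Piezo2, the mechanosensitive channel of these cells, went the other way at -2.35 (adjusted p = 0.0259 by edgeR), a value that rested on p57WT 5. It was at 21.1 CPM in p57WT 5, against 1.82 to 5.2 CPM in p57WT 1 to 4 and 0.422 to 2.61 CPM in p57KO, and without p57WT 5 the value was -1.18 (adjusted p = 0.141 by edgeR). Leaving out p57KO 3 or p57KO 4 ended the call too (adjusted p = 0.0561 and 0.0613 by edgeR). Fev, a transcription factor of serotonin-producing cells, was at 1.29 (adjusted p = 0.0378 by edgeR), and this call was lost without any 1 of p57KO 2, p57KO 5 and p57WT 2 to 4 (adjusted p from 0.055 to 0.0828 by edgeR). Adra2a, an adrenoceptor gene, was at 0.21 and missed the threshold (adjusted p = 0.741 by edgeR), and turned to -0.17 without p57KO 5.

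**Figure D3:**
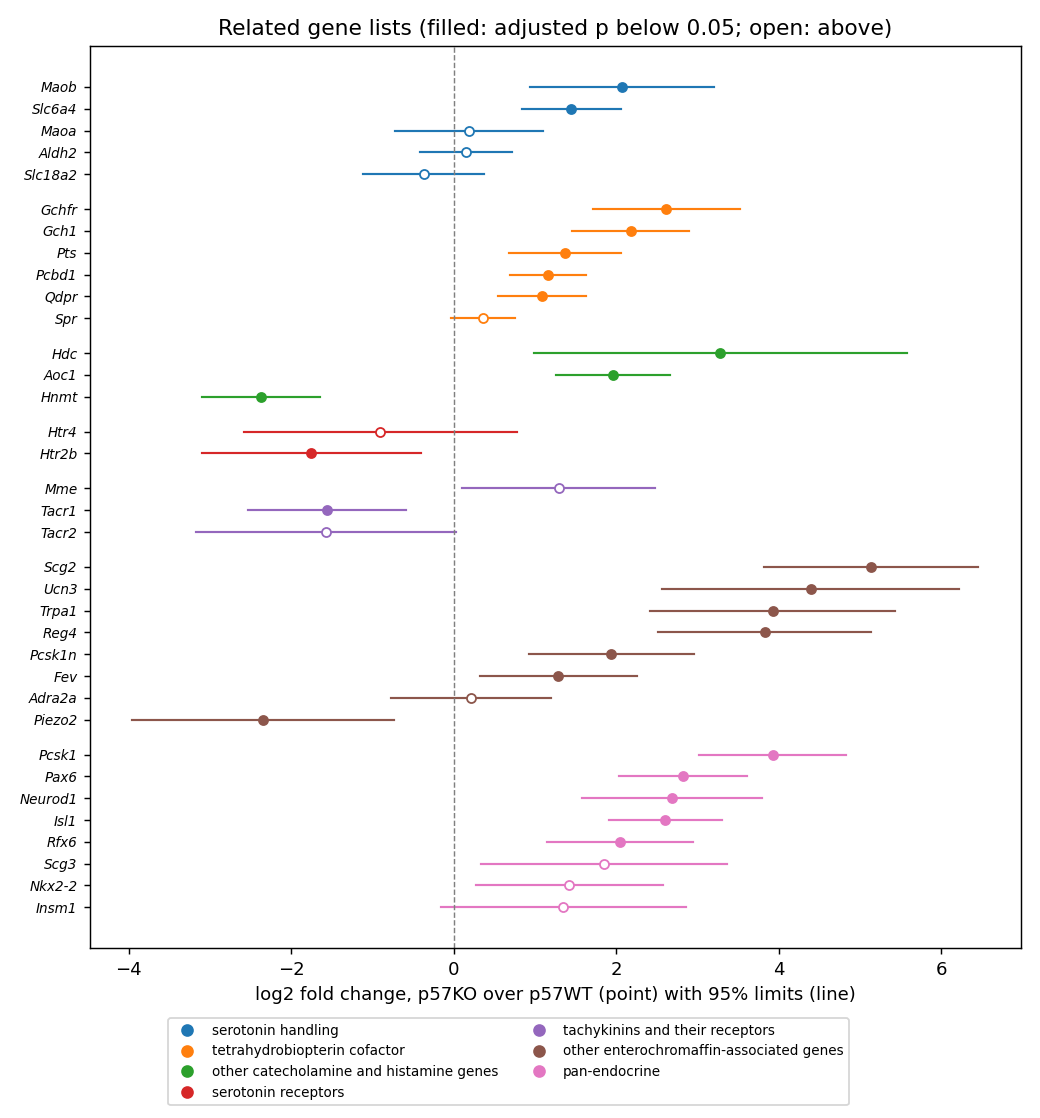
log2 fold change of p57KO over p57WT (x axis) with 95% limits for the tested and reported genes of 7 related lists, each list in its own colour, filled points passing at an edgeR adjusted p below 0.05. With TMM scaling, cofactor, enterochromaffin-associated and pan-endocrine genes lie mostly to the right of 0, while Hnmt, Htr2b, Tacr1 and Piezo2 lie to the left.

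To set the members against endocrine RNA as a whole, 8 pan-endocrine genes that hold no member were used. They summed to between 287 and 450 CPM in p57KO cells and between 15.9 and 101 CPM in p57WT. Of these, 5 passed as higher and 0 as lower (median 2.33), where 19.3% and 17.2% of all genes tested did so. Pcsk1, a prohormone convertase, was at 3.92 and the endocrine transcription factors Pax6, Neurod1 and Isl1 were at 2.82, 2.69 and 2.6. Within 607 Pcsk1 still passed, and Pax6, Neurod1 and Isl1, at 2.33, 2.59 and 2.35, did not (adjusted p = 0.0893, 0.175 and 0.0641 by edgeR). Insm1 and Nkx2-2, transcription factors of early endocrine cells, were at 1.35 and 1.42 and missed the threshold (adjusted p = 0.143 and 0.0506 by edgeR), although Nkx2-2 passed in DESeq2 and limma voom (adjusted p = 0.0176 and 0.0105). Insm1 was at 3.06 and passed with the ribosomal RNA term (adjusted p = 0.00306 by edgeR), and was at 0.45 without p57KO 5. With libraries scaled to the 8 markers, 1 of 8 members passed as higher, where 0.88% of all genes did so. This was Th, at 2.15 (95% limits 0.44 to 3.86, adjusted p = 0.0163 by edgeR), which had entered the test through its p57KO level alone and carries no weight against that share. None of the other 7 passed. Tph1, Chga, Chgb, Tac1 and Slc18a1 were at 0.73, 0.65, 0.64, 0.40 and 0.38, with 95% limits from -0.59 to 2.05 for Tph1 and from -0.93 to 1.69 for Slc18a1. Lmx1a was at 0 (-1.11 to 1.11), and Ddc turned to -1.06 (-2.36 to 0.23, adjusted p = 0.115 by edgeR).

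These values rested on p57WT 2, which had the lowest pan-endocrine sum and the highest smooth muscle sum. With p57WT 2 left out, an alternative chosen after seeing the data, 5 members passed as higher on the endocrine scale, where 1.17% of 17133 genes did so, and Th, at 1.87, again carries no weight. The other 4 were Lmx1a at 1.35, Tph1 at 1.15, Chga at 1.03 and Tac1 at 1.01 (adjusted p from 0.0234 to 0.0447 by edgeR). Chgb at 0.94 and Slc18a1 at 0.87 missed the threshold (adjusted p = 0.0502 and 0.0535 by edgeR), and Ddc was at -0.59 (adjusted p = 0.125 by edgeR). The median over all genes was -2.77 on the endocrine scale and -2.004 without p57WT 2.

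Scaled to epithelial markers, where the median over all genes was -1.19, 7 of 8 members passed as higher, against 2.98% of all genes. Th, at 3.21, again carries no weight against that share. The others that passed lay between 1.90 for Slc18a1 and 2.09 for Tac1 (adjusted p from 0.00033 to 0.0067 by edgeR). Ddc did not pass at 0.43 (95% limits -0.37 to 1.23, adjusted p = 0.332 by edgeR).

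**Figure D4:**
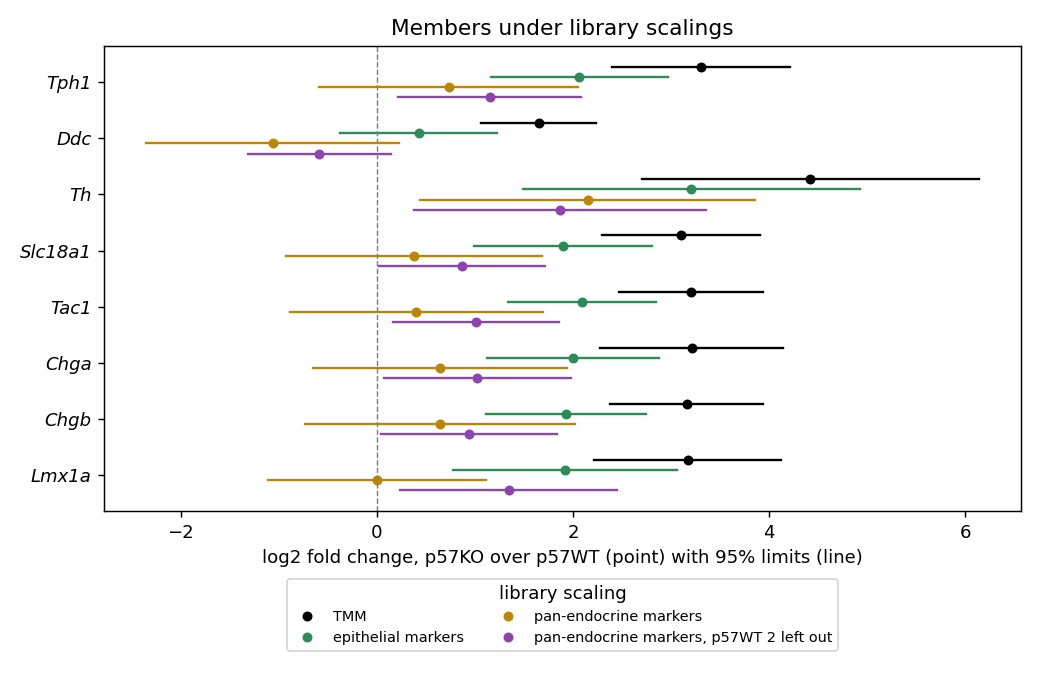
log2 fold change of p57KO over p57WT (points) with 95% limits (lines) for the 8 genes under 4 library scalings, listed in the legend. All 8 genes lie above 0 with TMM, 7 pass with epithelial markers, and on the endocrine scale Th alone passes with all libraries and Ddc lies below 0.

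Within label number 607, where p57KO 1 and p57KO 2 stood against p57WT 1 alone, all 8 members had positive values and 2 passed, where 1.1% of all genes passed as higher. Chgb was at 2.57 and Tac1 at 2.08 (adjusted p = 0.0297 and 0.0381 by edgeR). Lmx1a at 3.22, Tph1 at 2.67, Chga at 2.71 and Slc18a1 at 2.37 missed the threshold (adjusted p from 0.0548 to 0.0761 by edgeR), as did Th at 4.36 and Ddc at 1.05 (adjusted p = 0.17 and 0.22 by edgeR). Between the p57KO libraries of 608 and of 607 the members' values lay between -0.45 for Chga and 0.81 for Lmx1a, and none passed in edgeR, where 6.68% of all genes passed in either direction. At an unadjusted p below 0.05 there was 1 member, Ddc, at 0.78. Within p57WT, libraries 2 to 5 (740) against p57WT 1 (607) gave -1.11 for Tph1, -1.10 for Tac1, -1.02 for Chga and -0.997 for Chgb, and between -0.37 for Slc18a1 and 0.71 for Lmx1a for the other 4. No member passed in edgeR, where 0% of all genes passed in either direction, and 1 member, Tac1, had an unadjusted p below 0.05. This comparison has 1 library on the 607 side.

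Cells other than enterochromaffin cells also make these products, so their markers were read beside the members. Enteric neurons express Tac1, and some express Th and Ddc. Of 11 tested enteric neuron genes 2 passed as higher and 5 as lower (median -0.67), where 19.3% and 17.2% of all genes tested did so. The 14 measured ones summed to 44.6 to 87.8 CPM in p57KO cells and 48.0 to 157 CPM in p57WT. Those that passed as higher were Snap25, which endocrine cells also express, at 2.58, and Nefm, with overlapping libraries, at 1.35 (adjusted p = 0.0171 by edgeR for Nefm). The neuropeptide gene Vip and Hand2, a neural crest and mesenchyme transcription factor gene, were among the 5 that passed as lower. They were at -6.13 and -2.52 (adjusted p = 0.00145 and 0.00741 by edgeR). Vip was at 0 to 0.762 CPM in p57KO and passed the filter on low counts through p57WT alone. Its call thus carries no weight in the count of 5. Mast cells express Tph1. Of 10 mast cell genes 4 were measured and summed to 17.8 to 77.3 CPM in p57KO cells and 3.79 to 12.6 CPM in p57WT, and 1 of 1 tested, Kit, passed as higher at 1.32. In p57KO 3 to 5 the sums were 25.0, 17.8 and 21.2 CPM, of which Kit alone made 24.3, 17.5 and 20.5 CPM. Kit was at 3.79 to 12.4 CPM in p57WT, so outside p57KO 1 and p57KO 2 the sum was nearly all Kit. Their protease gene Cpa3 was at 7.40 and 61.4 CPM in p57KO 1 and p57KO 2, at 0.174 to 0.315 CPM in p57KO 3 to 5, and at no more than 0.158 CPM in p57WT. Tph1 was at 49.8 to 148 CPM in p57KO 3 to 5, and its log2 fold change without p57KO 1 and p57KO 2 was 3.24 (adjusted p = 0.000427 by edgeR). The part of mast cell or enteric neuron RNA in the members' values was not tested. The 8 measured neutrophil and myeloid genes summed to 174 to 6870 CPM in p57KO cells and 13 to 98.0 CPM in p57WT. The 7 erythroid genes summed to 103 to 1308 CPM in p57KO cells and 2.09 to 87.9 CPM in p57WT. In these lists 5 of 5 and 7 of 7 tested passed as higher, where 19.3% of all genes tested did so.

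Profiles over the 10 libraries were compared by the root mean square difference of log2 CPM, each gene centred on its own mean. Among the members the closest pairs were Slc18a1 with Tac1 (0.33) and Tph1 with Chgb (0.33), and the most distant was Ddc with Th (1.33). Outside the members, among 13465 genes, Rasd1, a Ras-related gene, was among the 3 nearest of Tph1 (0.43), Slc18a1 (0.37), Tac1 (0.35), Chga (0.41) and Chgb (0.42). The transcription factor gene Pax4 was nearest to Slc18a1 (0.35), Pax6 to Chgb (0.37) and Necab2 to Tac1 (0.35), while Plcxd3 was nearest to Th (0.34) and Btnl6 to Lmx1a (0.49). The others among the 3 nearest were Clps (0.45) and Tm4sf4 (0.49) for Tph1, Cpn1 (0.365) for Slc18a1 and Akr1c13 (0.36) for Tac1. For Chga they were Tm4sf4 (0.42) and Cyp2c65 (0.45), and for Chgb Cyp4b1 (0.45). For Th they were Resp18 (0.53) and Pcsk1 (0.57), and for Lmx1a Fmo5 (0.50) and Btnl5-ps (0.50). Ddc lay nearest to Slco2a1, a prostaglandin transporter gene, at 0.23, Slc43a2, an amino acid transporter gene, at 0.25, and Entpd5 at 0.26. For comparison, the median distance over those genes was 1.81 from Tph1 and 1.04 from Ddc. These libraries share genotype, depth and label number, and the distances are a description.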

How the data were processed

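Counts of reads per gene were deposited by the authors for 10 libraries, whole numbers and not normalized, per the file headers. The deposited table also held a signal value, the count over a size factor per library, and the authors' log2 fold changes with standard errors, a Wald score and p-values; in the authors' deposited table the members' log2 fold changes ran from 1.70 (Ddc) to 4.46 (Th), each adjusted p below 0.05. Builds mm10 and GRCm38 and the tools STAR 2.6.1d, HTSeq 1.0, DESeq2 1.22.2, Cufflinks 2.2.1, Trim Galore and FastQC are listed per the submitters' processing notes. No source used here gives the step each tool served, the gene annotation or the strandedness of counting. No exon of another gene overlapped a member's exon in GENCODE M21, which gave coordinates and lengths and matched 20558 of 20579 identifiers. The smallest mean normalized count in the table was 3.0, so lower genes were not analysed here.

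The genotype comparison used edgeR 4.0.16 (R 4.3.3): quasi-likelihood test, TMM scaling, the tool's expression filter (3869 genes removed), genotype as the only term, Benjamini-Hochberg adjustment over 16710 genes, threshold 0.05. The code was tested on simulated data. Marker scalings set each library's size by the mean log2 CPM of a list. Alternatives used DESeq2 1.42.0 and limma 3.58.1. Members and lists were chosen with earlier results of these data known. Named genes were the members, Cdkn1c, Hopx, up to 4 called and 2 uncalled genes per list, and the 3 nearest profiles per member. Qdpr, Htr4, Fev, Piezo2, Pcsk1n and the ratios of gene pairs were named after their values were seen. Values of 2 genes of the lists are not reported here. No animal identifiers were given, so p-values measure the spread between libraries. No 2 libraries of a genotype were alike within sampling noise: chi-square per degree of freedom was at least 47.2 in p57KO and 9.58 in p57WT pairs.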

Additional observations from a re-analysis of the deposited data

Results flagged for a closer look

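Within a genotype, 1 library lay far from the other 4 in 16 of 98 sets of 5 values examined. The cutoff flags about 1 in 20 sets of independent, normally distributed values. The CPM values were not log-transformed and the sets share libraries, so no excess is read from this count. Among members this was Tac1 in p57WT 1, at 27.7 CPM against 10.2 to 15.1 CPM in the other p57WT libraries. Cdkn1c was at 458 CPM in p57WT 5, the next value being 198 CPM. Several of the remaining values fell in p57KO 2. There Pts was at 192 CPM, Hdc at 25.6, Cpa3 at 61.4, Mcpt4, a mast cell protease gene, at 2.84 and Vip, an enteric neuropeptide gene, at 0.762 CPM. In p57KO 5 Insm1 was at 61.3, Nkx2-2 at 13.5 and Hand2, a neural crest and mesenchyme transcription factor gene, at 13.6 CPM. In p57WT 1 Gch1 was at 38.6, Ucn3 at 2.28 and Mcpt4 at 0.569 CPM. Tacr1 was at 56.8 CPM in p57WT 2, and in p57WT 3 Mme, the neprilysin gene, was at 20.6 and Vip at 52.5 CPM.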

How the results depend on the processing

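All 8 members kept a positive log2 fold change and passed under DESeq2 size factors, no expression filter, the DESeq2 Wald test, limma voom, a term for ribosomal RNA class, and without p57KO 1 and p57KO 2. They also passed when each of the 10 libraries was left out: Tph1 ranged from 3.12 to 3.61, Ddc from 1.47 to 1.79, Th from 3.97 to 4.74, Slc18a1 from 2.79 to 3.27, Tac1 from 3.02 to 3.51, Chga from 3.01 to 3.49, Chgb from 3.01 to 3.43 and Lmx1a from 2.84 to 3.47. Within 607, 2 members passed, and Tph1 (2.67), Ddc (1.05), Th (4.36), Slc18a1 (2.37), Chga (2.71) and Lmx1a (3.22) did not. That setting leaves 1 p57WT library, assumed to vary like the others. Scaled to endocrine markers 1 member passed, and Tph1 (0.73), Slc18a1 (0.38), Tac1 (0.40), Chga (0.65), Chgb (0.64) and Lmx1a (0) did not, while Ddc turned to -1.06, or -0.59 without p57WT 2, where Slc18a1 (0.87) and Chgb (0.94) also missed the threshold. Scaled to epithelial markers Ddc (0.43) did not pass. Over all genes, 3226 were called higher and 2881 lower, so 52.8% of calls were higher. The counts were 183 and 826 within 607 (18.1% higher), 1207 and 1752 with the ribosomal RNA term (40.8%), 498 and 9693 on the epithelial scale (4.89%) and 147 and 14932 on the endocrine scale (under 1%). Same-numbered p57KO and p57WT libraries were not treated as paired in the main fit. Correlations of their deviations ran from -0.134 to 0.204, and 1 of 5 numbers matched best with itself. These values cannot show whether the libraries were paired. With the replicate number as a block, all 8 members passed and 2861 genes were higher and 2943 lower. At the depth of the shallowest library, 3 counts of a gene are 0.392 CPM, which limits Th in p57WT.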
